A study of Homo sapiens with 2 samples.

Results

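The HOX genes encode homeodomain transcription factors, which bind DNA and set the identity of body segments along the head-to-tail axis of the embryo. In mammals they lie in 4 clusters on different chromosomes. Members at one end of a cluster (low paralog numbers) are used towards the head and those at the other end (high numbers) towards the tail, and each paralog number marks the related genes of different clusters. Adult tissues and carcinomas keep part of this code. PBX, MEIS and PKNOX proteins bind DNA together with HOX proteins, Polycomb complexes hold the clusters silent, Trithorax complexes keep them active, and retinoic acid and the CDX factors switch on subsets of them.

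All genes named HOXA, HOXB, HOXC or HOXD plus a number were taken, which gave 39 genes. HOXA on chromosome 7 has 11 of them, HOXB on chromosome 17 has 10, and HOXC on chromosome 12 and HOXD on chromosome 2 have 9 each. The expression table holds 31845 genes and lists 30 of the 39. The other 9 (HOXC12, HOXD1, HOXD3, HOXD4, HOXD8, HOXD9, HOXD11, HOXD12 and HOXD13) have no row and were counted as 0 in both libraries. Of the 30, 18 had 50 counts or more in at least 1 library, 8 had 10 to 49 and 4 had fewer than 10.

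RNA sequencing compared parental Capan-1 cells, an established pancreatic adenocarcinoma line that carries mutant BRCA2, with a derivative of that line selected for resistance to the PARP inhibitor olaparib by rising doses from 15 nM to 128 uM. The parental cells carry the label control, both cultures grew in RPMI1640 with serum, and BRCA2 is mutant in the line that both derive from. Whether the resistant line is 1 clone, and whether olaparib was present at harvest, is not given in the sources used here. There was 1 library per line, so no difference below has a replicate check, and the 95% intervals (exact, Clopper-Pearson type) cover counting error only. The column pair headed with the name of the line was read as parental. The heading of the other pair is not explained in the labels. It was read as the resistant line by elimination, and all directions below rest on that reading.

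Depth was similar, with 34572931 counts in the parental and 34507480 in the resistant cells. BRCA2 had 1381 parental and 7585 resistant counts. The labels give the cell type as breast cancer. All 8 listed markers of pancreatic duct and epithelium, out of 9 searched, had 50 counts or more, with KRT19 at 40864 and 51896 counts (parental and resistant) and EPCAM at 43076 and 76990. Of these 8, 2 were lower by 2-fold or more in the resistant library, CFTR (8946 and 2563 counts) and MUC1 (3572 and 1399), and SOX9 was also lower (2882 and 1717). Of 6 mammary luminal markers 5 were listed. GATA3 had 1884 and 486 counts and TRPS1 119 and 81, while ESR1 had 8 and 18, PGR 4 and 1 and ANKRD30A 2 and 13. The summed endothelial markers had 3 counts in each library. The 4 listed fibroblast markers summed to 98 and 57 counts, mostly from COL1A1 (97 and 38). Of the 5 leukocyte markers PTPRC had 7 and 19 counts, and CD68, the only 1 at 50 counts, had 351 and 582.

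Promoter sequence is shown for 4 members that stand for the states met below: HOXA10, the highest member in both libraries, HOXA9, the member that was more than 2-fold higher in the resistant cells, HOXA6, one of those more than 2-fold lower, and HOXD10, at 0 and 2 counts. Each is the 250 bases upstream of the start of the gene on its own strand, from RefSeq on GRCh38.p14, with every CpG dinucleotide in capitals. The regions are chr7:27179862-27180111, chr7:27165538-27165787 and chr7:27147775-27148024 on the minus strand for HOXA10, HOXA9 and HOXA6, and chr2:176116528-176116777 on the plus strand for HOXD10.
HOXA10: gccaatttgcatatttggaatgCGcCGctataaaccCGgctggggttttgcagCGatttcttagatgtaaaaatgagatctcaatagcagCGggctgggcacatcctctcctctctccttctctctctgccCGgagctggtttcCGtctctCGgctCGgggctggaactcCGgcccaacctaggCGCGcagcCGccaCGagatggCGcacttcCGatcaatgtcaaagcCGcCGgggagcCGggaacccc
HOXA9: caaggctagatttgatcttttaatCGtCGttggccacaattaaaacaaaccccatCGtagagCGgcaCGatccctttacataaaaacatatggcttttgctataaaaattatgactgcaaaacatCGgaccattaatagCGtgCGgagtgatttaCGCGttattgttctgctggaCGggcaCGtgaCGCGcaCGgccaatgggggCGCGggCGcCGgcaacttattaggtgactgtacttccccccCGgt
HOXA6: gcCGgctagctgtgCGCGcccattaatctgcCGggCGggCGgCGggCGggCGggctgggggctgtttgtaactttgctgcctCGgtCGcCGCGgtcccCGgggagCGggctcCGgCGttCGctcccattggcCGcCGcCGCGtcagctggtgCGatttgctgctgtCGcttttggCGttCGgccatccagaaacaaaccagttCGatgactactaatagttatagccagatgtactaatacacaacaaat
HOXD10: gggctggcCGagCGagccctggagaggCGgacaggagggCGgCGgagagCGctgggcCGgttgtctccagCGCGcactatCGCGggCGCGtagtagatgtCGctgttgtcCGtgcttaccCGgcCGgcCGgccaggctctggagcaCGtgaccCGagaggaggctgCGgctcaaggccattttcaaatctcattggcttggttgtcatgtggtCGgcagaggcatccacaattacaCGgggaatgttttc

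These windows hold 19 CpG sites upstream of HOXA10, 20 upstream of HOXA9, 27 upstream of HOXA6 and 23 upstream of HOXD10. The promoter table matched 20 of the 39 members, 9 of them from HOXA, 1 from HOXB, 2 from HOXC (HOXC4 and HOXC5, with 1 window in common) and 8 from HOXD. Their median was 20.5 CpG sites per window, against 11 over all 27305 promoters of the table, while the median GC content was 59% against 58%. The median was 15 sites for the 6 matched members at 50 counts or more, 23 for the 7 listed below that and 21 for the 7 that were not listed. Those 6 are all from HOXA and the 7 not listed all from HOXD, so expression and cluster cannot be told apart here. The motif TTTATNG, which CDX factors and posterior HOX proteins can bind, was searched on both strands and occurred in 5 of the 20 windows (25%, with the common HOXC window counted for both genes) and in 9.29% of all promoters. It occurred once each upstream of HOXA9 and HOXA10 and not in the HOXA6 or HOXD10 window. The motif TGATTNAT, bound by HOX and PBX proteins together, occurred in 2 of the 20 windows (10%) and in 2.59% of all promoters. A match describes the letters of a window and says nothing of binding in these cells.

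In both libraries the HOX code of Capan-1 was carried by HOXA and HOXB, with little HOXC and next to no HOXD. Levels between genes are compared in FPKM, which the authors scaled by gene length. In the parental cells the 39 genes summed to 39.7 FPKM, of which HOXA made 49.6%, HOXB 44.5% and HOXC 5.91%. In the resistant cells they summed to 33.9 FPKM, with 49.6% from HOXA, 44.1% from HOXB and 6.26% from HOXC. The HOXD members gave no parental count and 2 resistant counts, both from HOXD10. A count of 0 allows up to 0.0868 CPM (3 counts) in the parental library, so absence of HOXD transcripts is not shown.

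HOXA10, known for its part in uterine and hindlimb patterning, had the highest level, at 10.4 FPKM in the parental and 9.44 FPKM in the resistant cells. HOXB6, a gene of the middle of the HOXB cluster, followed at 7.38 and 5.51 FPKM. Together these genes made 44.7% of the summed HOX FPKM in the parental and 44.1% in the resistant library. The next 5 places were taken in both libraries by HOXB3, HOXB9, HOXA5, HOXA11 and HOXB2, between 1.99 and 2.83 FPKM in the parental and between 1.46 and 3.24 FPKM in the resistant cells. These 7 genes made 75.2% of the HOX FPKM in the parental and 76.3% in the resistant library. HOXA10 lay above 85.5% of all listed genes in the parental library, while HOXA2, the lowest member at 50 counts in both libraries, lay above 47.6%.

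The order of levels was firm at the top and loose below it. Among the 17 members at 50 counts in the parental library, the counting intervals overlapped for 12 of 16 neighbouring pairs. HOXA10 stood clear of HOXB6 and HOXB6 of HOXB3, while from HOXB3 down to HOXB2 each level overlapped the next. In the resistant library 8 of 15 neighbouring pairs overlapped, and HOXB9 (3.24 FPKM) stood clear of HOXA11 (2.48 FPKM) below it. HOXB3 went from the third place (2.83 FPKM) to the sixth (1.82 FPKM). Going the other way, HOXA9 moved from the nineteenth place (0.307 FPKM) to the twelfth (0.675 FPKM). The number of members at 1 FPKM or more was 10 in the parental and 7 in the resistant library.

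**Figure D1:**
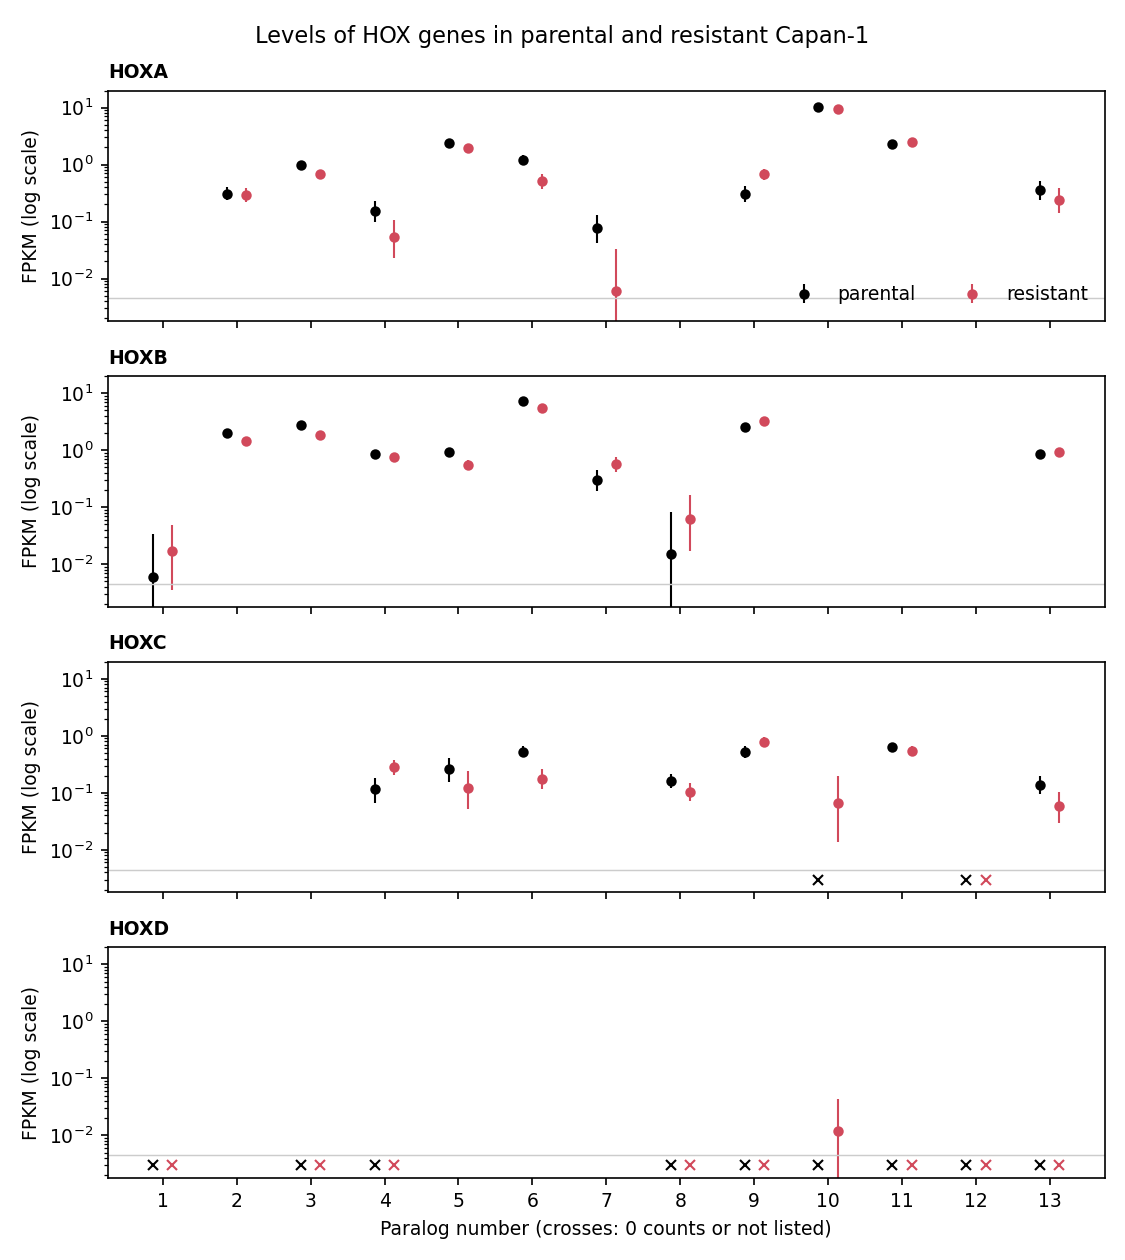
Level of the members described in FPKM (log scale) against paralog number, 1 panel per cluster, with parental cells in black and resistant cells in red. Points are single libraries, bars are 95% counting intervals, cut off at the axis for some members with 1 or 2 counts, and crosses mark members with 0 counts or no row. HOXA10 and HOXB6 are the highest in both libraries, and HOXD has 1 point, at 2 counts of HOXD10 in the resistant library.

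The summed HOX counts were lower in the resistant library, at 6340 against 7922 in the parental (184 CPM against 229), a ratio of 0.81 with an interval of 0.78 to 0.83. All ratios are resistant over parental after scaling by trimmed mean of M values, and log2 ratios of single genes have 1 count added to each library. The sums of HOXA, HOXB and HOXC were each lower. HOXA gave 3937 parental and 3280 resistant counts (ratio 0.84, 0.80 to 0.88), HOXB 3608 and 2746 (0.77, 0.73 to 0.81) and HOXC 377 and 312 (0.83, 0.71 to 0.97). Fewer transcripts per cell and another mixture of cells cannot be told apart in bulk RNA.

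Of the 18 members at 50 counts or more, 1 (HOXA9) was higher by 2-fold or more in the resistant cells, 3 (HOXA6 and HOXC6 among them) were lower by 2-fold or more and 14 lay within 2-fold. Over all 15102 genes at that minimum 6.00% were higher and 8.95% lower by that much. The median log2 ratio of the 18 was -0.32, with 13 below 0 and 5 above. For all genes at the minimum the median was 0.06, with 48.8% below 0. Over the 12035 of these genes whose counts did not exceed those of the highest member it was -0.06. With the minimum lowered to 10 counts, 2 of 26 members (HOXA9 and HOXC4) were higher and 7 lower by 2-fold or more, against 9.55% and 13.6% of 20673 genes, and the members' median was -0.49 against -0.04. The counting interval lay wholly above 1 for 3 of the 18 and wholly below 1 for 10. At this depth that holds for 43.7% and 41.2% of all genes, so most genes of this depth have an interval that excludes 1.

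The members did not move as a block: the summed counts of anterior and of central genes were lower in the resistant cells, while those of posterior genes were close to the parental level. Single genes of a class did not all follow its sum. Paralogs 1 to 3 (anterior) gave 2076 parental and 1316 resistant counts, a ratio of 0.64 (0.60 to 0.68). Paralogs 4 to 8 (central) gave 2230 and 1599, a ratio of 0.72 (0.68 to 0.77). Paralogs 9 to 13 (posterior) gave 3616 and 3425, a ratio of 0.95 (0.91 to 1.00). At 50 counts or more, all 5 anterior and all 6 central members had a log2 ratio below 0, with medians of -0.61 and -0.62, whereas 5 of the 7 posterior members were above 0, with a median of 0.07. The sign of the summed posterior ratio depended on the scaling: it was -0.07 on the log2 scale here, and 0.0026 with upper-quartile scaling and 0.03 with summed FPKM. The shares below do not depend on scaling. These classes were set with earlier results of these data known.

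The posterior share of all HOX counts was 45.6% (44.5 to 46.7) in the parental and 54.0% (52.8 to 55.3) in the resistant library. A higher posterior share was also found inside each expressed cluster. Posterior genes made 73.3% (71.9 to 74.7) of HOXA counts in the parental and 80.0% (78.6 to 81.4) in the resistant cells. In HOXB they made 14.4% (13.3 to 15.6) and 21.5% (19.998 to 23.1). In HOXC they made 56.2% (51.1 to 61.3) and 66.7% (61.1 to 71.9), where the intervals overlapped slightly. HOXA10 alone held 29.6% of HOX counts in the parental and 32.2% in the resistant library. Without it the posterior share was 22.8% (21.7 to 23.9) and 32.2% (30.8 to 33.6), and the posterior sum turned higher in the resistant library, at a log2 ratio of 0.13. HOXA10 was left out after its values were seen. Its own ratio (0.88) lay below that of the posterior sum, so leaving it out had to raise the ratio of that sum.

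**Figure D2:**
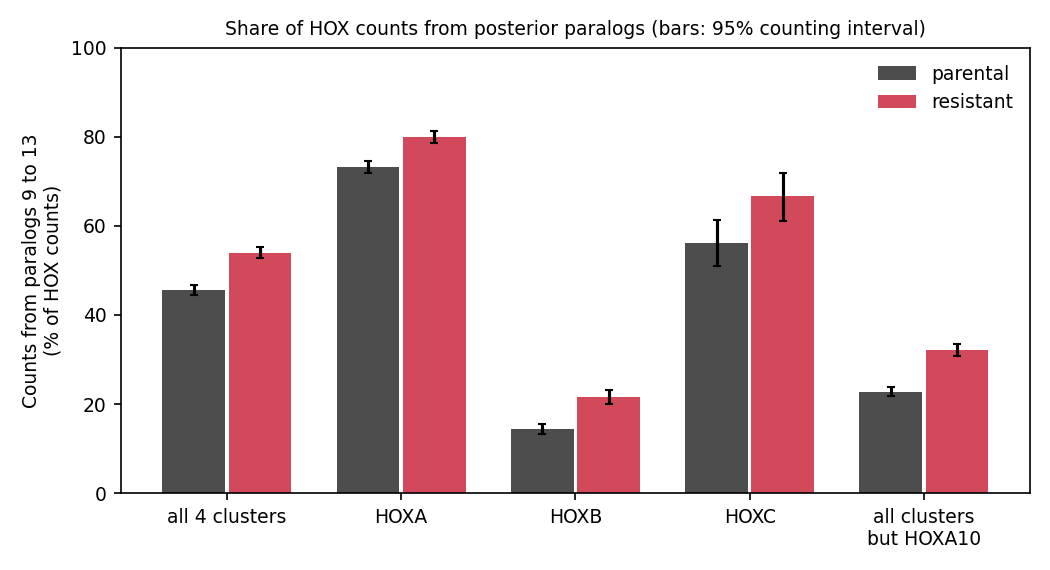
Counts from posterior genes (paralogs 9 to 13) as a percentage of HOX counts, for all clusters, for HOXA, HOXB and HOXC alone and for all clusters without HOXA10. Bars are single libraries (parental grey, resistant red) with 95% counting intervals; every resistant bar is the taller of its pair, from 45.6% to 54.0% over all clusters.

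Among the anterior genes, HOXB3, of the hindbrain and neck region, had 1056 counts in the parental and 653 in the resistant library, a log2 ratio of -0.68, the largest loss of counts of any member. HOXA3, needed for thymus and parathyroid, had 290 and 188 counts (log2 ratio -0.61), and HOXB2, a hindbrain gene, had 469 and 329 (-0.50). All of these intervals lay below 1. HOXA2, which gives the second pharyngeal arch its identity, had 57 and 52 counts (log2 ratio -0.12), and its interval of 0.62 to 1.36 spans 1. HOXB1, also anterior, had 1 count in the parental and 3 in the resistant library.

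HOXC6, a gene of the thoracic region, had 81 parental and 26 resistant counts, a log2 ratio of -1.59 (3.09-fold lower), the lowest ratio of the 18. Its paralog HOXA6 had 105 and 43 counts (log2 ratio -1.26, 2.43-fold lower), and HOXB6, the most abundant of the 3, had 1087 and 779 (-0.47). The whole group of paralog 6 was thus lower, with intervals below 1 for each. HOXB5 had 166 and 97 counts (log2 ratio -0.76), and HOXA5, known from lung and cervical patterning, had 359 and 273 (-0.38), also with intervals below 1. HOXB4, known for its action in blood stem cells, had 285 and 246 counts (-0.20), with an interval of 0.73 to 1.03 that spans 1.

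Central genes below 50 counts pointed both ways. HOXA4 had 24 parental and 8 resistant counts, HOXA7 14 and 1, HOXC5 18 and 8, and HOXC8 49 and 30. In contrast HOXB7 had 24 and 44 counts (ratio 1.85, 1.10 to 3.17) and HOXC4 17 and 40 (2.37, 1.31 to 4.46). HOXB8 had 1 and 4 counts. HOXC4 and HOXC6, whose ratios lie on opposite sides of 1, have 484 exon bases in common on the same strand in GENCODE 29, so how reads there were divided affects both values.

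The 3 listed genes of paralog 9, which belong to the thoracic and lumbar region, were all higher in the resistant library. HOXA9, known from blood progenitors, had 38 parental and 80 resistant counts, a log2 ratio of 1.06 and a ratio of 2.12 (1.42 to 3.21). HOXC9 had 69 and 99 counts (log2 ratio 0.52; ratio 1.44, 1.05 to 1.99), and HOXB9 253 and 313 (0.32; 1.25, 1.05 to 1.48). Their sum went from 360 to 492 counts, a ratio of 1.38 (1.198 to 1.58). These were the 3 members at 50 counts whose intervals lay above 1, and the group was singled out after its values were seen. For HOXA9, the transcript AC004080.3 shares 397 exon bases on the same strand (13.1% of the HOXA9 exons) and had 103 parental and 80 resistant counts, so reads that could go to either may have been divided between them.

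The remaining posterior genes at 50 counts lay within 2-fold. HOXA10 had 2344 parental and 2042 resistant counts, a log2 ratio of -0.19 with a ratio interval of 0.83 to 0.93. HOXA11, a gene of the forearm and kidney, had 475 and 484 counts (log2 ratio 0.04). HOXB13, best known from prostate and hindgut, had 266 and 278 counts (0.07), and HOXC11 had 113 and 94 (-0.25). The intervals of these last 3 span 1. At lower counts, HOXC13, a hair and nail gene, had 30 and 12 counts and HOXA13, of the distal limb, 28 and 18. HOXC10 had 0 and 3 counts, which is at the floor of 3 counts per library and gives no fold.

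**Figure D3:**
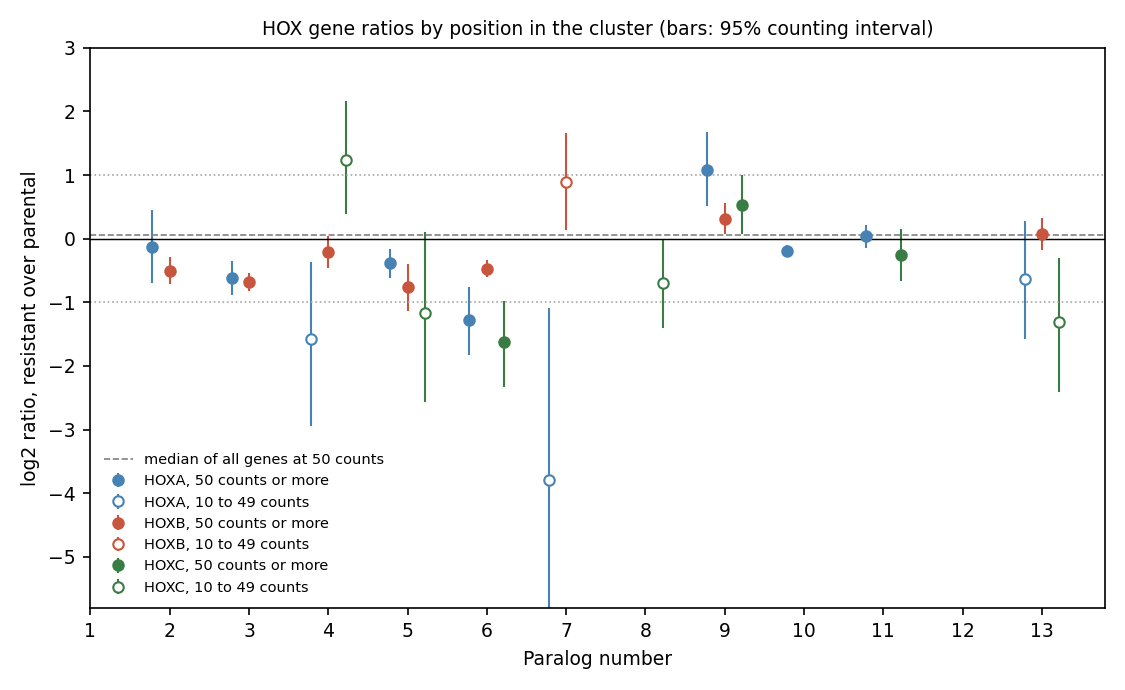
Log2 ratio of scaled counts, resistant over parental and with no count added, against paralog number for the members described that had 10 counts or more. Colours mark clusters, open symbols have 10 to 49 counts, bars are 95% counting intervals, dotted lines mark 2-fold and the dashed line is the median of all genes (0.06 with 1 count added). Filled symbols for paralogs 2 to 6 lie below 0, and those for paralog 9 lie above it. The lower bar of HOXA7 runs off the axis.

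Reads of paralogs in different clusters can be confused where their sequences match, and identical stretches were short. A run ends at the first mismatch, so longer stretches that are similar but not identical were not measured. Over 569 pairs of members from different clusters, the longest identical run had a median of 15 bases in GENCODE 29 transcripts. It reached 50 bases in 1 pair, HOXB3 and HOXD3, at 62 bases. Pairs with the same paralog number had a median of 18 bases (42 pairs) and other pairs 14 (527 pairs). Overlap with antisense genes was more extensive. HOXA-AS3 (34 parental and 25 resistant counts) overlaps 39.3% of HOXA6 exon bases and 62.5% of those of HOXA7. HOXA11-AS (45 and 28 counts) overlaps 31.1% of HOXA11, and HOXB-AS3 (15 and 2) overlaps 16.3% of HOXB6. HOXA-AS2 overlaps 8.69% of HOXA3 and 14.5% of HOXA4. At 666 and 347 counts it had more than either gene. The libraries were made strand-specific per the labels, but the strand setting of the counting is not given in the sources used here. Sense and antisense reads at these genes may therefore not have been told apart. Exons of some members also overlap on the same strand. HOXB3 shares 433 exon bases with HOXB6 (16.6% of HOXB6 exons) and 159 with HOXB4, and AC004080.3 shares 368 with HOXA10. The transcript AC103702.1 (255 parental and 214 resistant counts) shares 482 with HOXB4 (12.8% of HOXB4 exons). How reads there were divided affects the values of these genes.

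Of 25 non-coding RNAs of the clusters 17 were listed and 4 had 50 counts or more. All 4 were below 0, none by 2-fold, with a median log2 ratio of -0.73. Of all genes at that minimum 48.8% lay below 0 and 8.95% were 2-fold lower. HOTAIRM1, at the anterior end of HOXA, had 927 parental and 478 resistant counts (-0.94). HOXA-AS2, antisense to HOXA3 and overlapping 374 of its exon bases (8.69%), had 666 and 347 (-0.93). HOXA3 itself had a log2 ratio of -0.61. Since the strand setting of the counting is not given, reads in the overlap may enter both values. At the posterior end and under 50 counts, HOTTIP, a non-coding RNA beside HOXA13 and named here after its values were seen, had 22 and 43 counts. HOTAIR, from the HOXC cluster and also chosen after seeing its values, had 121 and 83. HOXB-AS1, the other gene at 50 counts, had 69 and 55, with a ratio of 0.80 and an interval of 0.55 to 1.16 that spans 1.

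Genes that flank the clusters showed no common direction. Over all genes at 50 counts, 48.8% lay below 0, 6.00% were 2-fold higher and 8.95% 2-fold lower. Of the 7 HOXA neighbours at 50 counts the median log2 ratio was 0.13, and SNX10, a sorting nexin, was 2-fold lower (1401 parental and 632 resistant counts, -1.14). The 10 HOXB neighbours had a median of 0.46, and TTLL6, a tubulin-modifying enzyme next to the posterior end of HOXB, went from 209 to 737 counts (1.82). The 9 HOXC neighbours had a median of -0.44, with 8 below 0, 1 above and none past 2-fold. They ran from HNRNPA1 at -0.87 to ATF7 at 0.88. The 7 HOXD neighbours had a median of 0.25, also with none past 2-fold, from NFE2L2 at -0.93 to CHN1 at 0.62. Flanking genes of HOXD were thus expressed beside a cluster whose HOX genes gave 2 counts in all.

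Among known regulators of the clusters, CDX2, an intestinal homeobox factor of the ParaHox family, had 145 counts in the parental and 1042 in the resistant library, a log2 ratio of 2.85. Its ratio of 7.23 (6.07 to 8.67) exceeded that of every HOX gene at 50 counts. It was the 1 of 6 ParaHox genes at 50 counts. PDX1, the pancreatic member of that family, had 7 and 16 counts and CDX1 0 and 2. Whether the difference in CDX2 bears on any HOX gene was not tested.

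Of the 9 genes for PBX, MEIS and PKNOX cofactors, 7 had 50 counts or more, none past 2-fold. They had 5 below 0, 2 above and a median log2 ratio of -0.48, beside 48.8% of all genes below 0. MEIS2, one of the cofactors that enter HOX complexes on DNA, had 148 parental and 92 resistant counts (-0.67). The genes above 0, named after their values were seen, were PBX2 (286 and 448 counts, 0.66) and PKNOX1 (829 and 1070, 0.38).

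Polycomb genes, which hold the clusters silent, had members on both sides of 0. Of 28 such genes at 50 counts, out of 30, 17 were above 0 and 11 below, with a median of 0.25. PCGF3, a subunit of a variant repressive complex 1, was 2-fold higher at 24 parental and 56 resistant counts (log2 ratio 1.199). PHC1 (61 and 29 counts, -1.04) and JARID2, a partner of the H3K27 methyltransferase (1786 and 871, -1.03), were 2-fold lower. Of 24 Trithorax and elongation genes at 50 counts, which keep the clusters active, out of 26, 18 were below 0 and 6 above, with a median of -0.50. Of all genes at that minimum 48.8% lay below 0. SETD1A, an H3K4 methyltransferase, was 2-fold lower at 309 and 127 counts (-1.27). KMT2A, the methyltransferase best known for maintaining HOX expression and named after its values were seen, had 6106 and 3904 counts (-0.64). The highest of the 6 above 0, also named after its values were seen, was PAXIP1 (1498 and 2371 counts, 0.67). Polycomb thus had 1 of 28 genes 2-fold higher and 2 lower, and Trithorax had 0 of 24 higher and 1 lower, beside the 6.00% higher and 8.95% lower of all genes.

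In the retinoic acid pathway, which induces anterior HOX genes in the embryo, 13 of 19 genes had 50 counts or more. Of these 1 was 2-fold higher and 4 lower, beside 6.00% and 8.95% of all genes. The median log2 ratio was -0.61, and 11 lay below 0, as did 48.8% of all genes at that minimum. STRA6, the retinol uptake receptor, had 237 parental and 38 resistant counts (-2.60), and ALDH1A1, which makes retinoic acid, had 9013 and 2962 (-1.60). Among the receptors, RARG had 1283 and 525 counts (-1.28) and RARB, itself a retinoic acid target, had 421 and 1879 (2.16). RARB was the exception among the receptors at 50 counts, since RARA, RARG, RXRA and RXRB all lay below 0.

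**Figure D4:**
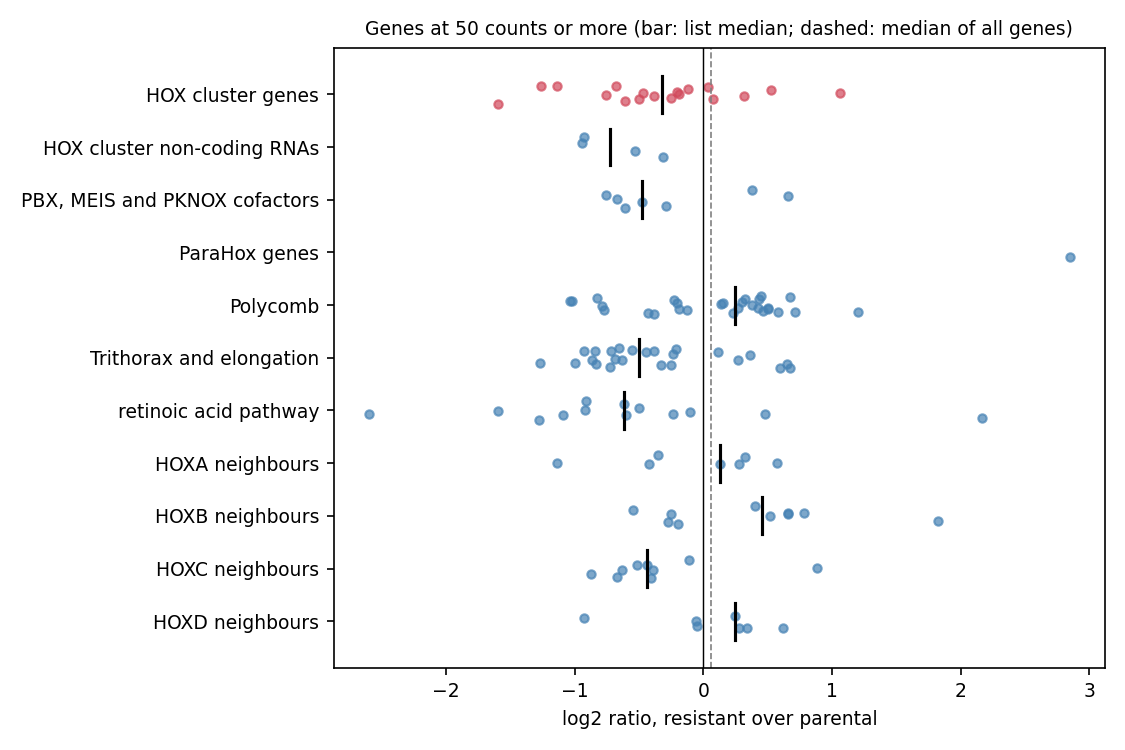
Log2 ratio, resistant over parental, of single genes at 50 counts or more in each list, with HOX genes in red, a black bar at the median of lists with more than 2 genes and a dashed line at the median of all genes (0.06). CDX2 stands alone at 2.85 in the ParaHox row, and the HOX median lies at -0.32.

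The members differ from other genes in properties that can move counts. The 18 members at 50 counts had a median GC content of 54.4% against 47.5% for all genes at that minimum, and a median length 1.85 times that of all genes. Removing a smooth trend of the ratio on length gave a members' median of -0.32, and on GC content -0.28. After removal of the length trend the class medians were -0.47 for anterior, -0.63 for central and 0.23 for posterior genes, and HOXA9 came to 0.995, just under 2-fold.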

How the data were processed

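Total RNA from 1 parental and 1 olaparib-resistant Capan-1 culture was extracted with Trizol and sequenced as ScriptSeq libraries, a kit that keeps strand, per the labels. The submitters' processing notes name RSEM 1.2.3 and hg19. The deposited counts are whole numbers per Ensembl gene with no normalization, per the file headers, and may be rounded estimates. The FPKM values were made by the authors, per the file headers, and are per length and depth. Total counts per library are given above. Of 31845 identifiers 29536 were named from the gene name table.

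Ratios were computed from counts scaled with edgeR 4.0.16 (trimmed mean of M values), with 1 count added to each library for log2 ratios, at a minimum of 50 counts in the higher library. With 1 library per group no test was made. Intervals of ratios (exact conditional, 95%) and shares cover counting error only. A call means a 2-fold ratio. Gene structure came from GENCODE 29 on GRCh38. The ratio code was tested on simulated data. The members, classes and lists were chosen with earlier results of these data known. Members at 50 counts were named, and 2 genes that the naming rule takes are not reported here. From each other list the genes past 2-fold with the largest differences were named, up to 4, or the 2 largest where none passed, plus CDX2 and BRCA2. Alternatives were other scalings (DESeq2 1.42.0 size factors among them), priors, minimums and fold sizes. Removal of length and GC trends and of HOXA10 was added after seeing the data. Protein sequences were not analysed here.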

Additional observations from a re-analysis of the deposited data

How the results depend on the processing

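The median of the HOX genes kept its sign under every alternative tried, but the counts of 2-fold members depended on the thresholds. Members at least 2-fold higher (1 as reported) numbered 0 with a prior of 5 counts, with a fold size of 4, with a minimum of 200 counts or with the length trend removed, 2 with a minimum of 10 or 20 counts, and 6 with none. Members at least 2-fold lower (3 as reported) numbered 7 with a minimum of 10 counts or none, 5 with 20, 1 with 200, 0 at a fold size of 4 and 6 at 1.5. The log2 ratio of summed HOXA counts (-0.25) was -0.18 with upper-quartile scaling and -0.35 omitting HOXA10. With deposited FPKM that of HOXB (-0.38) was -0.24 and that of HOXC (-0.26) was -0.14. The posterior sum (-0.07) changed sign with upper-quartile scaling (0.0026), deposited FPKM (0.033) and omission of HOXA10 (0.13). For other scalings and trends the cause was not tested. Of 144 recomputed ratios of single members 143 moved by less than their counting interval, with HOXB3 at -0.48 without the length trend the exception. The trends and the omission of HOXA10 were chosen after seeing the data. No paired analysis was possible because each group has 1 library.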
